A study of Mus musculus with 6 samples.

Results

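The 10 genes described here encode the myostatin and activin axis of skeletal muscle. They are the ligands Mstn, Gdf11 and Inhba, the extracellular inhibitors Fst and Fstl3, the type II receptors Acvr2a and Acvr2b, the signal transducers Smad2 and Smad3, and the inhibitory Smad7. Members were listed by gene symbol, and the list was drawn up with earlier results of these data known. A probe counted as a member when its RefSeq accession belonged to one of these symbols, which gave 12 of the 55681 probes on the array and 10 of the 20911 genes that could be tested. All 12 probes were well above background on all 6 arrays.

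The mRNA was that of the gastrocnemius, a mixed but largely fast calf muscle, of male C57BL/6J mice, for which the sources used here name no transgene or treatment. There were 3 young mice (13 weeks of age) and 3 aged mice (26 months of age), each read on its own single-colour Agilent array. The comparison addresses how gene expression in muscle differs with age. Whole muscle was used, so fewer cells of a type and less RNA per cell cannot be told apart.

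Myostatin and the activins are secreted dimers of the TGF-β family. They bind a type II receptor, ACVR2A or ACVR2B, which recruits a type I receptor, and the complex phosphorylates SMAD2 and SMAD3. These enter the nucleus with SMAD4, and in muscle fibres the signal restrains growth. Follistatin (Fst) and follistatin-like 3 (Fstl3) trap the ligands before they reach the receptor, and SMAD7 blocks the receptor inside the cell.

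The ligand gene Mstn was lower in aged mice, at 0.436-fold, and the inhibitor genes Fst and Fstl3 were higher, at 2.23-fold and 1.69-fold. Smad7 was lower, at 0.586-fold. For these 4 genes the 3 aged mice lay beyond the 3 young mice, a pattern that 21.8% of all genes tested had. By direction, 2 of the 4 were higher and 2 lower, against 7.92% and 13.9% of all genes. None of the 10 members passed an adjusted p of 0.05 in limma, a threshold that 0.253% of all genes tested passed (0.196% higher and 0.0574% lower). At an unadjusted p under 0.05 in limma, 5 of 10 members passed, against 14.4% of all genes tested. Of these, 2 were higher (Fst and Fstl3) and 3 lower (Mstn, Smad7 and Acvr2b), against 6.07% and 8.36% of all genes tested. The age groups lay unevenly over the rows of the slide. With the row as a block the age difference rests on aged mouse 1 alone, the one aged mouse in the row of the young mice. In that fit Smad7 and Acvr2b were no longer among the 5, whereas Gdf11 and Smad3, both lower in that mouse, were. For Smad3 the other aged mice were above every young mouse. The median log2 fold change of the 10 members was -0.14, and that of all genes tested was -0.06. The mean was lower in aged mice for 7 of the 10 members and for 11887 of the 20911 genes tested. Counts of lower means given below are to be read beside that share. The number of arrays limits the precision. With 3 arrays in each group the smallest two-sided p of an exact permutation test is 0.1, which Mstn, Fst, Fstl3 and Smad7 each reached. Every gene whose groups do not overlap reaches it, so this p adds no support.

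**Figure D1:**
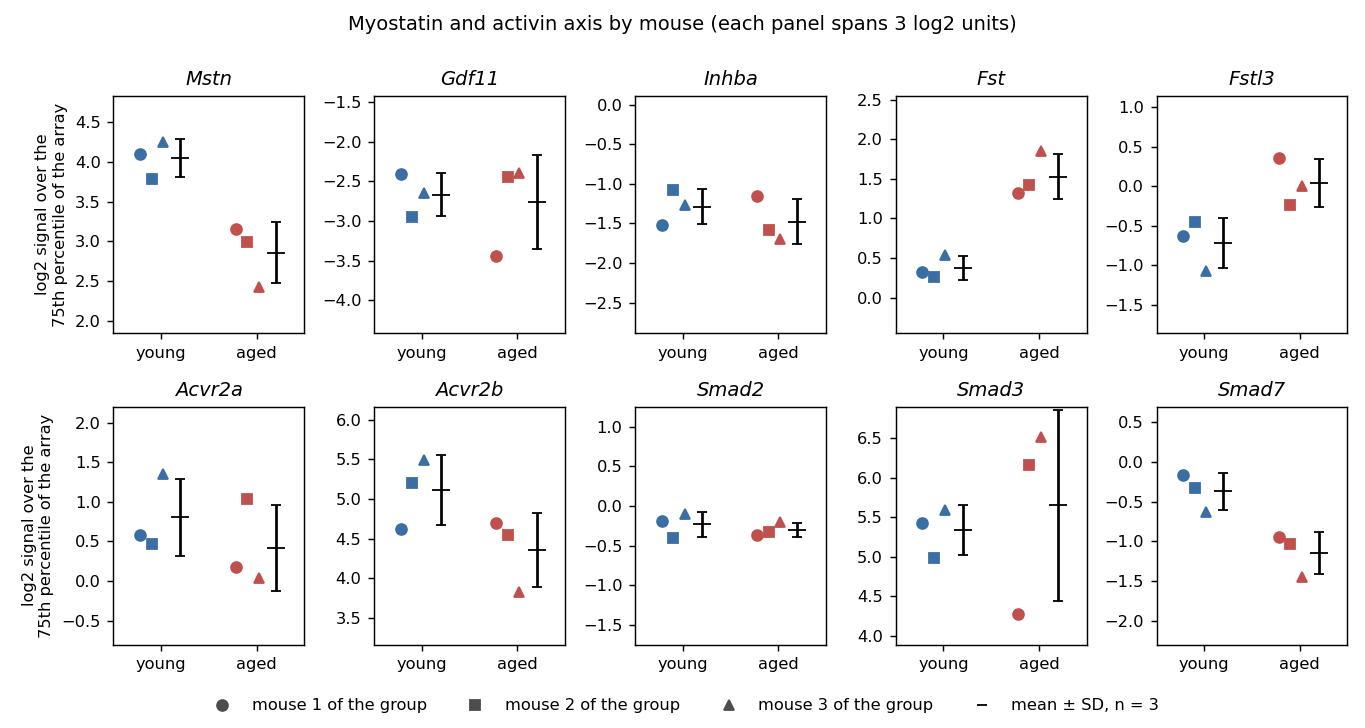
Signal of each member by mouse. The vertical axis is the log2 signal relative to the 75th percentile of the array, each point is 1 mouse, the bars are the mean ± SD of 3 mice, and every panel spans 3 log2 units. The aged mice lie below the young mice for Mstn and Smad7 and above them for Fst and Fstl3, and the groups overlap for the other 6 genes.

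Promoter sequence of 7 of the 10 members was taken from RefSeq (GRCm38.p6). The 250 bases before the start site are shown for the ligand gene that was lower, for its closest relative, Gdf11, whose groups overlapped, and for the inhibitor Fstl3, which was higher. Capitals mark matches, on either strand, to TATAAA (the TATA box), CANNTG (the E-box bound by myogenic factors) and CAGAC (the core of Smad-binding elements). A match describes the letters and does not show binding.
Mstn, chr1:53061390-53061639, plus strand: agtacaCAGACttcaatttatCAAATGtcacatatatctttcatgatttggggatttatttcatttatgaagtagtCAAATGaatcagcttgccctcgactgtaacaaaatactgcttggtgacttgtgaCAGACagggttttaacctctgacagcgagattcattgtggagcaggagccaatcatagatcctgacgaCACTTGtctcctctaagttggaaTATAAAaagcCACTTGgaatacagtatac
Gdf11, chr10:128891719-128891968, minus strand: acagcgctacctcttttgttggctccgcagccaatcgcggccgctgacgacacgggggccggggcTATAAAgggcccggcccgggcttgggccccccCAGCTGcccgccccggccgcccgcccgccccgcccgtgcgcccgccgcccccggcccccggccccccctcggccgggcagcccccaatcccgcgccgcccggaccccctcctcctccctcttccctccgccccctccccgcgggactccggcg
Fstl3, chr10:79777024-79777273, plus strand: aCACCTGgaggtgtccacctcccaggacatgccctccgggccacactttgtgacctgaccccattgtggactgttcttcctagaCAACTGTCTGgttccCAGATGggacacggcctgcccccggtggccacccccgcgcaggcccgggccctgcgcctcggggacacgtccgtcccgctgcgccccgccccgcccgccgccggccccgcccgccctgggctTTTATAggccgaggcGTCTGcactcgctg

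The Mstn window held 1 TATAAA, 29 bases before the start site, 4 matches to CANNTG and 2 to CAGAC. The Gdf11 window held 1 TATAAA, 185 bases before the start site, and 1 CANNTG. Fstl3 held 1 match to TATAAA, on the opposite strand (TTTATA) and 29 bases before the start site. It also held 3 matches to CANNTG and 2 to CAGAC, and 1 of the CAGAC matches shares a base with a CANNTG match. Of the 32851 mouse promoter windows of this length in the table, 12.4% held TATAAA, 66.2% CANNTG and 42.2% CAGAC. The GC content was 38.4% for Mstn, 81.2% for Gdf11 and 71.2% for Fstl3, and the median over all windows was 52.4%.

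Among the ligands, Mstn (NM_010834) encodes myostatin, which muscle fibres themselves make and whose loss gives enlarged muscles. In the order of the mouse numbers, the young mice had signals of 17.2, 13.8 and 19.2 times the array's 75th percentile, whereas the aged mice had 8.91, 7.95 and 5.35 times, and other genes are given in the same order. The lowest young mouse was therefore above the highest aged mouse. On the log2 scale the level was 4.05 ± 0.24 (SD, n = 3) in young and 2.86 ± 0.39 (SD, n = 3) in aged mice. The log2 fold change was -1.20 (standard error 0.24, 95% interval -1.78 to -0.62), with an unadjusted p of 0.00188 and an adjusted p of 0.138 from limma. Of all genes tested, 1.48% had a change as low. Set against the young average, aged mice 1 to 3 lay at -0.90, -1.06 and -1.63 on the log2 scale.

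Gdf11 (NM_010272) encodes a ligand whose mature part is closely related to myostatin and which acts in patterning of the embryo. Its signal was 0.188, 0.129 and 0.160 times the 75th percentile in young mice, and 0.0918, 0.183 and 0.191 times in aged mice. Aged mouse 1 was the lowest of the 6 and the other aged mice were within or just above the young range. This gave a log2 fold change of -0.09 (95% interval -0.85 to 0.67, adjusted p = 0.908 from limma). Without aged mouse 1, where age and row of the slide cannot be told apart, it was 0.25. With the row of the slide as a block it was -0.78 (unadjusted p = 0.0283 and adjusted p = 0.363 from limma), a value that rests on aged mouse 1, the one aged mouse in the row of the young mice. Inhba (NM_008380) encodes the βA subunit, which forms activin A. It was 0.348, 0.473 and 0.417 times the 75th percentile in young and 0.449, 0.334 and 0.310 times in aged mice, so aged mouse 1 lay within the young range and the other aged mice just below it. Its log2 fold change was -0.19 (95% interval -0.69 to 0.32, adjusted p = 0.708 from limma). Of the other ligand genes on the wider list (Inhbb, Inhbc, Inhbe, Inha and Nodal), 4 had a lower mean in aged mice and 1 a higher mean. Their log2 fold changes lay between -0.31 for Inhbc and 0.08 for Nodal, and no unadjusted p from limma was under 0.05. Inhbc was dim, with mean log2 levels of -3.65 in young and -3.96 in aged mice. It was above background on 3 young arrays but only 1 aged array.

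Fst (NM_001301375) encodes follistatin, which binds activins nearly irreversibly and also neutralises myostatin. Its signal was 1.25, 1.19 and 1.46 times the 75th percentile in young mice, and 2.50, 2.67 and 3.59 times in aged mice. All aged mice were above all young mice, and the spread within each group was small beside the gap. The log2 level was 0.37 ± 0.15 (SD, n = 3) in young and 1.53 ± 0.28 (SD, n = 3) in aged mice. The log2 fold change was 1.15 (standard error 0.20, 95% interval 0.69 to 1.62), with an unadjusted p of 0.000690 and an adjusted p of 0.0975 from limma, the lowest among the members. Of all genes tested, 2.64% had a change as high.

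Fstl3 (NM_031380) encodes a smaller secreted relative of follistatin that binds the same ligands. Its signal was 0.646, 0.730 and 0.475 times the 75th percentile in young and 1.28, 0.845 and 1.0 times in aged mice. All aged mice were again above all young mice, with the smallest gap between young mouse 2 and aged mouse 2. This gave a log2 fold change of 0.76 (standard error 0.24, 95% interval 0.19 to 1.33, unadjusted p = 0.0161 and adjusted p = 0.249 from limma). Of 9 other binding proteins, inhibitors and co-receptors on the list, 8 could be tested and Bambi was too dim. The mean of 3 was higher and of 5 lower in aged mice. Dcn, the matrix proteoglycan decorin, which can bind myostatin, was lower (log2 fold change -0.85, standard error 0.34, unadjusted p = 0.0421 and adjusted p = 0.330 from limma). Its log2 level was 8.43 ± 0.06 (SD, n = 3) in young and 7.57 ± 0.71 (SD, n = 3) in aged mice, and within row 1 of the slide, where aged mouse 1 lay with the young mice, its difference was -0.14. The myostatin-binding proteins Wfikkn1 and Wfikkn2 had log2 fold changes of 0.59 and 0.03, with adjusted p of 0.403 and 0.972 from limma.

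The latent ligands are cut by proteases before they can act. Of 6 protease genes on the list, 5 were tested, and 4 had a lower mean in aged mice. Bmp1, whose product releases myostatin from its propeptide, had a log2 fold change of -0.64 (standard error 0.21, unadjusted p = 0.0184 and adjusted p = 0.260 from limma), and its other 2 probes gave -0.58 and -0.43. Furin, the convertase that separates propeptide and ligand, was at -0.36 (adjusted p = 0.436 from limma).

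The 2 type II receptors are shared by myostatin, GDF11 and the activins. Acvr2b (NM_007397), the receptor myostatin prefers, was 24.7, 36.8 and 45.1 times the 75th percentile in young and 25.9, 23.4 and 14.2 times in aged mice. Aged mouse 1 was slightly above young mouse 1, so the groups overlapped. The log2 fold change was -0.75 (standard error 0.32, unadjusted p = 0.04999 and adjusted p = 0.346 from limma). The unadjusted p was under 0.05 in 9 of 19 alternative settings. Several of these reuse the Acvr2b values behind the p of 0.04999, so they are not separate results. Acvr2a (NM_007396) was 1.5, 1.38 and 2.56 times the 75th percentile in young and 1.13, 2.06 and 1.03 times in aged mice. Its groups overlapped, with a log2 fold change of -0.38 (95% interval -1.21 to 0.45, adjusted p = 0.640 from limma) from this probe and -0.28 from the other one. Of the other receptor genes, Acvr1b, the type I receptor ALK4, had a log2 fold change of -1.18 (standard error 0.47, unadjusted p = 0.0431 and adjusted p = 0.332 from limma). It was -0.24 in aged mouse 1 alone, and the groups overlapped. Acvr1c, Acvr1 and Tgfbr1 were at -0.67, -0.21 and 0.39.

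Smad2 (NM_001252481) and Smad3 (NM_016769) encode the proteins that the activated receptors phosphorylate. Phosphorylation is not seen by an array. Smad2 was between 0.757 and 0.936 times the 75th percentile in young and between 0.776 and 0.872 times in aged mice, and the aged range lay within the young range. Its log2 fold change was -0.07 (95% interval -0.45 to 0.31, adjusted p = 0.863 from limma). Smad3 was 43.0, 31.6 and 48.3 times the 75th percentile in young mice and 19.4, 71.6 and 91.3 times in aged mice. Aged mouse 1 was thus below every young mouse and the other aged mice above every young mouse. The log2 fold change of 0.32 (95% interval -1.03 to 1.66, adjusted p = 0.820 from limma) averages these, and without aged mouse 1 it was 1.0 (adjusted p = 0.129 from limma). That fit holds no aged mouse in the row of the young mice, so age and row of the slide cannot be told apart in it. The second Smad3 probe was far dimmer, with a mean log2 level of -1.50 in young mice against 5.33 for the first, so the level depends on the probe. It showed the same order of the aged mice, at -2.37, -0.97 and -0.21 on the log2 scale, with a log2 fold change of 0.32.

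Smad7 (NM_001042660) encodes the inhibitory SMAD that Smad3 induces as negative feedback. It was 0.895, 0.797 and 0.649 times the 75th percentile in young and 0.519, 0.487 and 0.367 times in aged mice. No aged mouse reached the lowest young mouse. This gave a log2 fold change of -0.77 (standard error 0.21, 95% interval -1.27 to -0.27, unadjusted p = 0.00817 and adjusted p = 0.202 from limma). Smad6, the other inhibitory SMAD, which acts mainly on BMP signals, was lower as well, with a log2 fold change of -0.86 (standard error 0.20, unadjusted p = 0.00382 and adjusted p = 0.160 from limma). Smad4, the common partner, was at -0.34 (adjusted p = 0.457 from limma), and Skil, a nuclear repressor of SMAD2 and SMAD3, was at -0.61 (unadjusted p = 0.0174 and adjusted p = 0.254 from limma), with -0.35 from its other probe.

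Of 8 genes known as targets of Smad2 and Smad3, Smad7 and Skil among them, 5 had a lower mean in aged mice and 3 a higher mean, and none passed an adjusted p of 0.05 in limma. Ccn2, which encodes connective tissue growth factor, had a log2 level of 4.21, 4.33 and 3.56 in young and 3.49, 1.80 and 1.25 in aged mice. All aged mice were below all young mice, aged mouse 1 only slightly, and the log2 fold change was -1.86 (standard error 0.56, unadjusted p = 0.0138 and adjusted p = 0.233 from limma). Leaving out aged mouse 1 moved it to -2.51 (adjusted p = 0.0339 from limma). In that fit all young mice lay in row 1 of the slide and all aged mice in row 2. Age and row thus cannot be told apart there, and 201 genes passed, against 53 with all arrays. Within row 1, aged mouse 1 differed from the young mean of Ccn2 by -0.55. Cdkn1a, the cell cycle inhibitor p21, differed in the other direction. Its log2 level was 3.02, 3.32 and 1.78 in young and 5.43, 3.41 and 4.85 in aged mice, with a log2 fold change of 1.85 (standard error 0.60, unadjusted p = 0.0182 and adjusted p = 0.259 from limma). Its other probe was above background on 2 arrays and gave 0.93. The ubiquitin ligase genes Fbxo32 and Trim63, which are also driven by FoxO factors, had log2 fold changes of 0.25 and 0.61 with 95% intervals of -1.57 to 2.07 and -0.88 to 2.11.

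Over the 38 pathway genes that were tested and are not members, 26 had a lower and 12 a higher mean in aged mice. Of all 20911 genes tested, 11887 had a lower and 9024 a higher mean. None of the 38 passed an adjusted p of 0.05 in limma. At an unadjusted p under 0.05, 6 were lower (Acvr1b, Bmp1, Ccn2, Dcn, Skil and Smad6) and 1 was higher (Cdkn1a), against 8.36% and 6.07% of all genes tested. The groups did not overlap for 9 genes that were lower and 1 that was higher, against 13.9% and 7.92% of all genes tested. The median log2 fold change was -0.26.

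**Figure D2:**
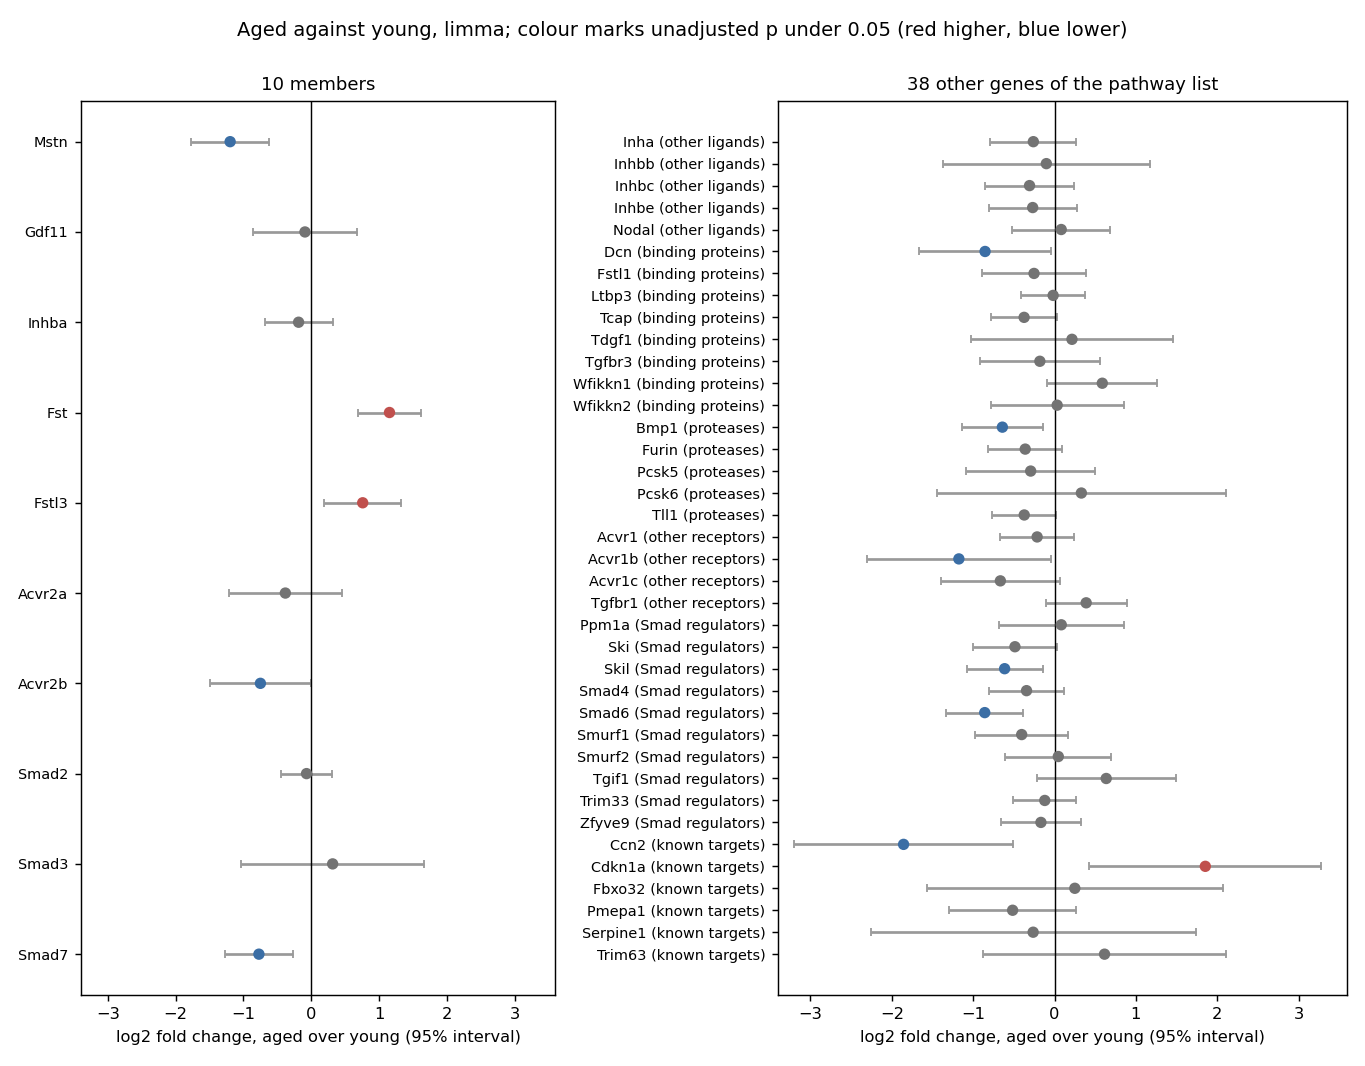
Log2 fold change of aged over young mice for the members and for the other genes of the pathway. Points are limma estimates from 3 mice per group, bars are 95% intervals, and colour marks an unadjusted p under 0.05. Mstn, Acvr2b and Smad7 lie below 0 and Fst and Fstl3 above it, and the intervals of the other 5 members include 0.

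The balance of ligand and inhibitor was taken on the same array, which removes the scaling between arrays. The log2 signal of Mstn minus that of Fst was 3.78, 3.54 and 3.72 in young mice, and 1.83, 1.57 and 0.57 in aged mice. All aged mice were lower, and the mean differed by -2.35 on the log2 scale (two-sided exact permutation p = 0.1, the smallest possible, and 0.4 after adjustment over 4 pairs). Mstn was lower and Fst higher without overlap, so this separation and this p followed from the single genes and add no support to them. The level of a difference between members depends on the probes and only its change between the groups can be read. Mstn minus Gdf11 was 6.51, 6.74 and 6.91 in young and 6.60, 5.44 and 4.81 in aged mice, and aged mouse 1 lay within the young range (exact permutation p = 0.2, adjusted p = 0.4). Between the groups, Acvr2a minus Acvr2b differed by 0.37 (exact permutation p = 0.4) and Smad2 minus Smad3 by -0.39 (exact permutation p = 0.5), with overlap of the groups in both pairs.

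**Figure D3:**
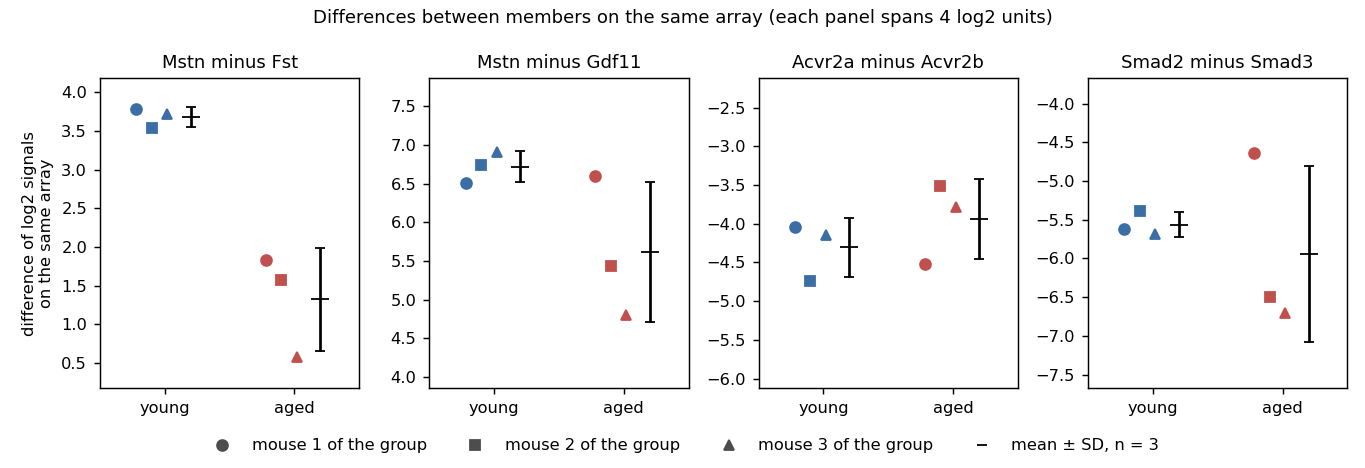
Difference of the log2 signals of 2 members on the same array, with 1 point per mouse and the mean ± SD of 3 mice. Mstn minus Fst is between 3.54 and 3.78 in young mice and between 0.57 and 1.83 in aged mice, and in the other 3 pairs the groups overlap.

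The arrays lay on 1 slide, with the 3 young mice and aged mouse 1 in row 1 and aged mice 2 and 3 in row 2. Within row 1, aged mouse 1 differed from the mean of the young mice by -0.90 for Mstn, 0.95 for Fst, 1.08 for Fstl3 and -0.58 for Smad7 on the log2 scale, the direction of all 6 arrays in each case. For these genes the groups did not overlap, so that direction was fixed in advance. Inhba (0.13) and Smad3 (-1.06) had, within row 1, the sign opposite to that of all 6 arrays. For Smad3 the other aged mice were above every young mouse. Both within row 1 and with the row as a block, the age difference rests on aged mouse 1 alone. With the row as a block, which gives the same differences, the unadjusted p from limma was 0.0307 for Mstn, 0.0117 for Fst and 0.0121 for Fstl3. It was 0.0922 for Smad7 and 0.375 for Acvr2b (log2 fold change -0.41), which thus lost the call at 0.05, and 0.0283 for Gdf11 and 0.0150 for Smad3, which gained it. Within row 1 alone the same 5 members were under 0.05, against 11.9% of all genes tested with the block and 11% within row 1. Age and row cannot be told apart for aged mice 2 and 3, nor in any fit without aged mouse 1. Over 19 alternative settings, the log2 fold change of Mstn ranged from -1.35 to -0.90, that of Fst from 0.95 to 1.26 and that of Fstl3 from 0.58 to 1.08, with adjusted p from limma of 0.0796 to 0.384, 0.0647 to 0.327 and 0.168 to 0.536. Smad7 ranged from -0.92 to -0.58, with adjusted p of 0.141 to 0.517. Leaving out 1 mouse moved Acvr2a to between -0.69 (without aged mouse 2) and -0.11 (without young mouse 3), and Acvr2b to between -0.99 (without young mouse 1) and -0.49 (without aged mouse 3). Inhba lay between -0.35 (without aged mouse 1) and -0.08 (without aged mouse 3), and Smad2 between -0.16 (without young mouse 2) and -0.0031 (without young mouse 3).

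**Figure D4:**
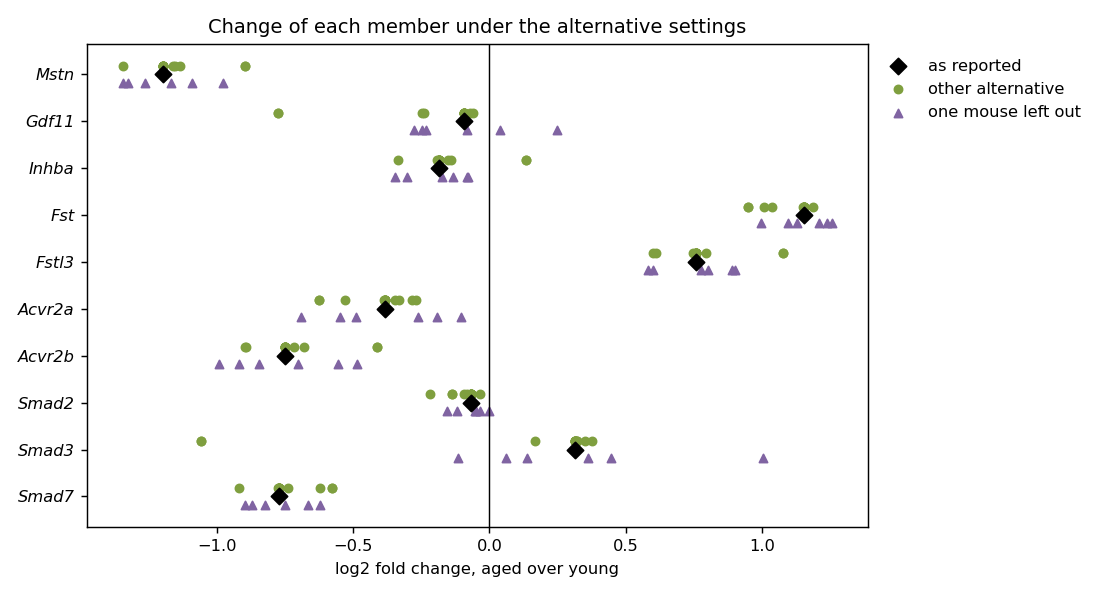
Log2 fold change of aged over young mice for each member as reported and under the alternative settings, including those that leave out 1 mouse. Mstn, Smad7, Fst and Fstl3 keep their sign in all settings, as do Acvr2a, Acvr2b and Smad2, whereas Gdf11, Inhba and Smad3 have values on both sides of 0. The groups of Mstn, Smad7, Fst and Fstl3 did not overlap, so leaving out a mouse or fitting the row could not reverse their sign.

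Cell type markers were read on the same arrays. The 6 fibre markers (such as Acta1, Ckm and Myh4) were all above background, and their summed signal was 3602 to 4217 times the 75th percentile in young and 2892 to 3880 times in aged mice, so the label of skeletal muscle was met. The summed signal of the 6 macrophage markers was 20.3 to 22.1 times in young and 23.1 to 28.5 times in aged mice, with 3 of 6 higher at an unadjusted p under 0.05 in limma. Of all genes tested, 6.07% were higher and 8.36% lower at that p. The summed signal of the 5 fibroblast markers was 118 to 151 and 31.8 to 91.9 times, with 2 of 5 lower. These were the collagen genes Col1a1 and Col1a2, with log2 fold changes of -1.56 and -1.54. Col3a1, Pdgfra and Lum were at -0.72, -0.21 and -0.22. The summed signal of the 4 endothelial markers was 13.3 to 15.7 and 9.56 to 11.6 times, with 1 of 4 (Cdh5) lower at that p. Their log2 fold changes went both ways, at -0.79 for Cdh5, -0.36 for Kdr, 0.52 for Pecam1 and 0.46 for Tek. The summed signal of the 3 erythrocyte markers tested was 194 to 325 and 79.7 to 154 times, with 3 of 3 lower. The sums overlapped between the groups for the tendon, adipocyte and Schwann cell markers, although 4 of 5 tendon and 3 of 4 Schwann cell markers were lower and 1 tendon marker was higher at that p. Kera and Prx, 1 marker of each of these lists, fell by 3.18 and 1.29 on the log2 scale (adjusted p = 0.0263 and 0.0428 from limma). The summed signal of the satellite cell markers was 0.355 to 0.401 times in young and 0.270 to 0.291 times in aged mice. Of these, Pax7 had a log2 fold change of -0.02, Calcr had -1.19 and was above background on 1 of 3 aged arrays, and Myf5 was too dim to be tested. Of the markers of granulosa cells and keratinocytes, Amh and Krt5 were too dim to be tested, and Krt14 was above background on 2 young and 2 aged arrays, with a log2 fold change of 0.36 (adjusted p = 0.793 from limma). Fst, Fstl3, Inhba, Dcn and Ccn2 are also expressed outside muscle fibres, and the part of these cells in the values above was not tested.

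The genes whose pattern was most like that of Mstn over the 6 arrays were Plpp7, Rcsd1, Stxbp6, Mtus1 and Arhgap20. Likeness was the root mean square difference of the log2 values after each gene was centred on its own mean, and it was 0.106 for Plpp7 and 0.159 for Arhgap20 against a median of 0.662 over the 12689 genes compared. For Plpp7 the log2 level was 6.24, 6.03 and 6.66 in young and 5.34, 5.40 and 4.76 in aged mice, and for Rcsd1 it was 6.19, 6.13 and 6.42 in young and 5.65, 5.40 and 4.75 in aged mice. In both genes aged mouse 3 was the lowest, as for Mstn. The choice rests on these 6 arrays, and no test was made.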

How the data were processed

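RNA of 6 gastrocnemius muscles was labelled with Cy3 and read on 1-colour Agilent arrays. The authors deposited Feature Extraction output (version 11.0.1.1 per the file headers, 9.5 per the submitters' processing notes), whose processed signal is a linear, background-subtracted intensity without scaling across arrays. A value table, also deposited, repeats these intensities exactly. The methods name no normalization or test. Control spots and spots flagged as outliers (161 to 212 per array) were left out. Log2 signals of spots of one probe were averaged and the 75th percentile over the probes of the array was subtracted (209 to 310 in processed signal). Between 48.7% and 53.8% of probes were well above background, and no spot was saturated. Accessions were matched to RefSeq symbols of GRCm38.p6 for 28331 of 55681 probes. An accession without a symbol counted as a gene of its own, and 13854 of the 20911 genes tested had a symbol. A gene was its probe with the highest mean among those well above background on at least 3 arrays.

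For the age comparison, lmFit and eBayes of limma (version 3.58.1, R 4.3.3) were run over 20911 genes, with Benjamini-Hochberg adjustment at 0.05. The fit was tested on simulated data. The members, the lists and the pathway genes named (those with an unadjusted p under 0.05, and a few others chosen after their values were seen) were chosen with earlier results of these data known. Alternatives covered background correction, scaling, the filter, the choice of probe, the variance model, the row of the slide, the replicate number and leaving out each mouse. The normexp correction used the median spot signal. Array pairs within a group differed by a median of 0.21 to 0.34 on the log2 scale, so no array was a copy of another. The metabolite and RT-PCR data were not analysed here.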

Additional observations from a re-analysis of the deposited data

How the results depend on the processing

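The number of genes past an adjusted p of 0.05 in limma was 53. It was 8 with no filter on dim probes, 35 with probes above background on all 6 arrays, 5 with replicate numbers fitted as a block, and 0 within row 1 of the slide, where 1 aged mouse was left and 2297 genes had an unadjusted p under 0.05. Without young mouse 1, 2 or 3 it was 9, 8 or 8, and without aged mouse 1, 2 or 3 it was 201, 10 or 1. Without aged mouse 1, age and row of the slide cannot be told apart. No member passed in any setting, and of the pathway genes between 0 and 1 did when 1 mouse was left out. The log2 fold change of Inhba reversed to 0.13 and that of Smad3 to -1.06 with the row as a block and within row 1, which both rest on aged mouse 1. With 1 mouse left out, Gdf11 lay between -0.28 and 0.25 and Smad3 between -0.12 and 1.0, and the other members kept their sign, with sizes that moved by over 1.5 times for Acvr2a, Acvr2b, Inhba and Smad2. The sign of Mstn, Fst, Fstl3 and Smad7 could not change there, as their groups did not overlap. The median of the members was -0.49 with the row as a block and within row 1, and -0.19 to -0.09 with 1 mouse left out. The number of members whose groups did not overlap was 4, against 21.8% of all genes tested. It was 7 within row 1, where 62.8% of all genes did not overlap with the single aged mouse, and between 4 and 7 with 1 mouse left out, where between 26.6% and 38.4% of all genes did not overlap (7 and 38.4% without aged mouse 1). Median scaling lowered the median of all genes from -0.06 to -0.21. Of the 19 settings, the value table and the rule on saturated probes gave values identical to those reported. The variance model, the replicate block and the filter settings changed the p-values but left the log2 fold change of every member as reported. The replicate number does not pair the mice (correlations of deviations -0.06, -0.27 and 0.03, and 0 of 6 mice correlated best with their own number), and with this block no member passed. The counts of members and the settings for them were added after the results were seen.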
